A study of Mus musculus with 24 samples.

Results

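ND3, ND4L and ND4 are neighbouring genes of mouse mitochondrial DNA (mtDNA), and the cytosines within their bounds were followed through bisulfite sequencing. On chrM of build mm10 (GRCm38), ND3 (GeneID 17718) lies at 9459 to 9806, ND4L (GeneID 17720) at 9877 to 10173 and ND4 (GeneID 17719) at 10167 to 11544. Every listed cytosine of either strand inside these bounds was taken, which gave 726 of the 5829 listed cytosines, 521 of them L-strand and 205 H-strand cytosines. ND3 held 115 of them, ND4L 122 and ND4 491, and 2 cytosines in the overlap of ND4L and ND4 were counted in both genes. No cytosine of the reference sequence of these genes was missing from the list.

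The genes encode subunits of complex I, the enzyme that passes electrons from NADH to ubiquinone and pumps protons across the inner mitochondrial membrane. All belong to the hydrophobic membrane arm of the complex: ND4 is one of the large antiporter-like subunits that line the proton path, and ND3 and ND4L are small subunits near the junction with the peripheral arm. mtDNA is a circle whose strands differ in base composition: the light (L) strand is rich in cytosine and poor in guanine, and the heavy (H) strand is the reverse. These genes are transcribed from the H strand, so the sequence that reads like the messenger is that of the L strand. Bisulfite turns unmodified cytosine into uracil while 5-methylcytosine (5mC) resists. The unconversion rate is the share of reads in which a cytosine was not converted. It holds 5mC, any cytosine that the reaction did not reach and any read placed on the wrong strand. The study found wholly unconverted L-strand reads in synthetic mtDNA as well, and proposes that some property of that strand's sequence accounts for them. In its supplement it raises the further possibility that copies of H-strand fragments without cytosine were aligned to the L strand. Such reads would count there as unconverted, which was not tested here.

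The study treated mtDNA with bisulfite for 5, 15, 40, 60 or 90 min and sequenced 24 PBAT libraries (post-bisulfite adapter tagging joins the adapters to DNA that is already converted). Native mtDNA came from nuclease-treated mitochondria of E14 embryonic stem cells (ESC, a mouse cell line) and of mouse brain and liver, labelled as strain C57BL/6J, and was cut once to make it linear. Synthetic mtDNA, made by PCR with unmodified nucleotides and so free of 5mC, was the control. Preparations E1 and E2 (ESC), B1 (brain), L1 (liver) and S1 (synthetic) were each treated for 5, 15, 40 and 60 min, E3 (ESC) for 60 and 90 min, and B2 (brain) and L2 (liver) for 60 min. The name E1_60 stands for the 60 min library of E1, and so on. The replicates are the preparations, and the 60 min libraries come from 3 ESC, 2 brain, 2 liver and 1 synthetic preparation.

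Rates were used at sites with a coverage of at least 10 reads, and the rate of a gene on a strand is the mean over these sites. Libraries held 257028 to 2260572 cytosine calls. In E1_15 the H strand of the 3 genes stood apart, with means of 10.3 to 11.1% against 3.42 to 4.10% in the other 15 min libraries. The rest of its H strand did so too, with 10.5% against 3.30 to 3.65%. B2_60 and E3_90 were shallow: in B2_60 only 11 of 77 L-strand cytosines of ND3, 35 of 89 of ND4L and 64 of 356 of ND4 were covered. No pair of the 276 library pairs was identical. Coverage of the L strand limits what can be said: at the median depth of covered sites, 3 reads, the smallest number taken to show a rate, were 5.00% (ND4L, S1_60) to 27.3% (ND3, E1_60) after 60 min, and on the H strand they were 0.226% (ND4, S1_60) to 4.26% (ND3, B2_60). Such floors cover counting error only, as PCR copies carry no molecular tags here.

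The L strand of the genes held stretches that stayed unconverted and stretches that converted fully, with many sites in between. Covered sites between 5 and 90% numbered 54 of 85 in ND4L, 34 of 67 in ND3 and 88 of 220 in ND4 in S1_60. For each gene the longest run of consecutive L-strand cytosines with mean rates of 90% or more after 60 min, and the longest run under 5%, are shown first because the values that follow turn on them. Sequences are those of RefSeq (GRCm38.p6), L strand, 5′ to 3′, with the listed cytosines in capitals.
ND3, high run, chrM:9606-9613: CCattCtC
ND3, low run, chrM:9520-9581: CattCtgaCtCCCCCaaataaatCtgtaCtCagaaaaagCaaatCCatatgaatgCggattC
ND4L, high run, chrM:10155-10170: CaaCCtaCtaCaatgC
ND4L, low run, chrM:10079-10125: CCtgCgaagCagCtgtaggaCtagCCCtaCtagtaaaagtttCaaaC
ND4, high run, chrM:10906-10962: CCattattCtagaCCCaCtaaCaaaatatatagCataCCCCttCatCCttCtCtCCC
ND4, low run, chrM:11141-11244: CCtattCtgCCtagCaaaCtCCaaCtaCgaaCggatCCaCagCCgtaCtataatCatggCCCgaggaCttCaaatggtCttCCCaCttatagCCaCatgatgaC

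Counted over their own bases, the high runs were poor in guanine and the low runs were not. For ND3 this rests on a high run of only 8 bases. The high run of ND4 held 21 cytosines and 2 guanines in 57 bases, and its low run 33 cytosines and 17 guanines over a longer stretch. In ND4L the counts were 6 cytosines and 1 guanine in 16 bases against 12 and 10 in 47 bases, and in ND3 they were 4 cytosines and 0 guanines in 8 bases against 16 and 8 in 62 bases. The high runs held no CG dinucleotide, and the low runs held 2 in ND3, 1 in ND4L and 4 in ND4.

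The high run of ND4 had a mean rate of 97.1% ± 2.01 (SD, n = 8 preparations) after 60 min. Its values were 96.1% in E1_60, 98.7% in E2_60, 95.8% in E3_60, 97.3% in B1_60, 95.7% in B2_60, 99.7% in L1_60, 99.4% in L2_60 and 94.2% in S1_60. Synthetic mtDNA, which cannot hold 5mC, was thus unconverted there almost as fully as native mtDNA. Its coverage was a median of 12 to 30 reads per site. The low run of ND4 had 0.166% ± 0.275 (SD, n = 7 preparations with a covered site), with 0.224% over all 33 cytosines in S1_60. Both runs were largely unconverted after 5 min, the high run with 98.8% ± 0.249 (SD, n = 5) and the low run with 61.5% ± 7.95 (SD, n = 5). After 15 min they were at 94.4% ± 1.89 and 3.57% ± 3.56 (SD, n = 5 each). The high run of ND4L had 98.8% ± 1.45 after 60 min (SD, n = 8) and that of ND3 94.0% ± 6.17 (SD, n = 8), with 98.6% and 83.2% in S1_60. The low runs of these genes had 1.56% ± 1.64 (SD, n = 4 preparations with a covered site) and 0.652% ± 0.966 (SD, n = 6). These runs were chosen by their rates, so the contrast between high and low runs is a description and was not tested.

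**Figure D1:**
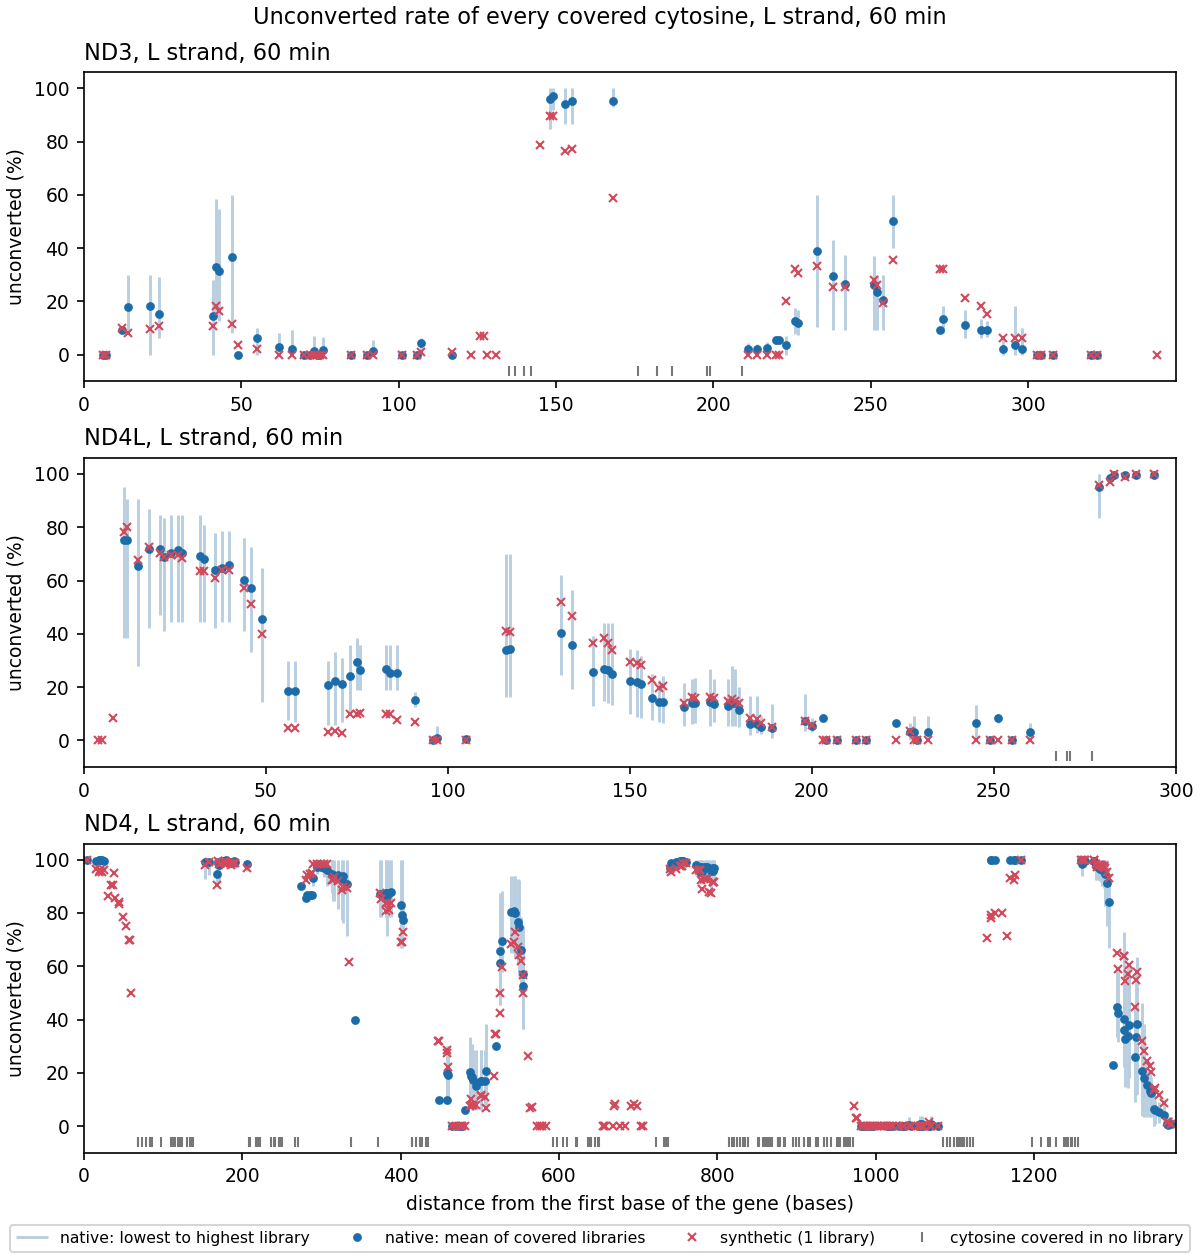
Unconversion rate (%) after 60 min of each L-strand cytosine of ND3, ND4L and ND4 against its distance from the first base of the gene. Blue points are means of the covered native libraries, pale bars run from the lowest to the highest native library, red crosses are the single synthetic library and grey ticks mark cytosines covered in no library; crosses follow points from plateaus near 100% down to stretches near 0%.

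Along ND4 the covered L-strand cytosines fell into blocks with mixed segments between. In bases 1 to 400 of the gene, 100-base segments had native means of 99.7%, 98.95%, 95.4% and 90.6%, and in bases 701 to 800 the mean was 97.5% ± 1.74 (SD, n = 7). In bases 1 to 100 each native library covered 7 of 27 cytosines, and S1_60 covered 19, with 86.0%. At most 9 of 24 were covered in bases 201 to 300. In bases 401 to 500 native libraries ran from 17.7% (L1_60, 18 of 27 cytosines) to 100% (L2_60, 1 cytosine), with 20.8% over 19 in S1_60. E2_60 and B2_60 covered none there. In bases 501 to 600 native libraries ran from 46.4% (L1_60, 10 of 27) to 93.3% (L2_60, 5 cytosines), with 33.3% over 25 in S1_60. Bases 1001 to 1100 had 0.157% ± 0.300 (SD, n = 6), and the last segment, from base 1301 to 1378, 19.6% ± 8.92 (SD, n = 7). Between these, bases 1201 to 1300 had 96.3% ± 3.11 (SD, n = 7), with 98.15% in S1_60. Bases 1101 to 1200 were covered in 2 native libraries, at 100% in each, and in S1_60 at 83.9%. Bases 801 to 900 were covered in no library and bases 601 to 700 only in S1_60, at 3.61% over 11 cytosines. In all, 133 of the 356 L-strand cytosines of ND4 were covered in none of the 8 libraries of 60 min, against 10 of 77 in ND3 and 4 of 89 in ND4L. The mean of ND4 on the L strand is therefore a mean over part of the gene.

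The overlap of ND4L and ND4 lies inside the last unconverted block of ND4L. It is shown with 12 bases on either side because it holds the stop codon of ND4L and the start codon of ND4. The shared bases are in capitals, L strand, RefSeq GRCm38.p6.
ND4L and ND4 overlap, chrM:10155-10185: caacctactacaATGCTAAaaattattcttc
The L-strand cytosine of the overlap, at 10170, was unconverted in 98.5% of reads in B1_60 and in 100% in each of the other 7 libraries of 60 min. The H-strand cytosine of the overlap, at 10169 in the ND4 start codon, had 0.237% as a mean, with 0.1 to 0.4% over the 8 libraries. Adjacent bases on opposite strands thus stood at the far ends of the scale. The start codon of ND4L held an H-strand cytosine at 9879 with 2.22%, from 0% in 4 libraries to 8.30% in B2_60, where its coverage was 12 reads.

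After 60 min the mean L-strand rate of ND4 was 66.9% ± 8.68 (SD, n = 8). It was 64.5% in E1_60, 72.0% in E2_60, 65.4% in E3_60, 70.2% in B1_60, 83.5% in B2_60, 60.8% in L1_60, 64.7% in L2_60 and 54.0% in S1_60. The highest value belongs to the shallow library and the lowest to synthetic mtDNA, the library with the most covered sites (220). ND4L had 35.6% ± 7.43 (SD, n = 8), with 25.1% in E1_60, 46.1% in E2_60, 29.4% in E3_60, 33.3% in B1_60, 42.4% in B2_60, 39.6% in L1_60, 39.7% in L2_60 and 28.8% in S1_60. ND3 had 25.7% ± 13.5 (SD, n = 8), with 39.5% in E1_60, 19.4% in E2_60, 20.8% in E3_60, 14.3% in B1_60, 50.8% in B2_60, 31.1% in L1_60, 15.1% in L2_60 and 15.0% in S1_60. In ND3 the high values go with few covered sites, 11 in B2_60, 17 in E1_60 and 30 in L1_60, against 58 in B1_60 and 67 in S1_60; the part of coverage in them was not tested. Sites of 90% or more made up 47.7 to 81.3% of the covered L-strand sites of ND4 in native libraries and 35.5% in S1_60, 7.14 to 17.1% and 7.06% in ND4L, and 3.45 to 36.4% and 0% in ND3.

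The L-strand rates of the genes differed from each other within libraries. ND4 was above ND3 by 41.1 percentage points ± 11.4 (SD, n = 8) and above ND4L by 31.3 ± 7.76 (SD, n = 8), each in 8 of 8 preparations (exact sign-flip permutation test, two-sided, Benjamini-Hochberg adjusted over 6 pairs, p = 0.0117 for both). ND4L was above ND3 by 9.82 ± 14.8 points (SD, n = 8) in 6 of 8, which did not pass (exact sign-flip permutation test, adjusted p = 0.109). The order of ND4L and ND3 is not fixed, since over the 35 and 6 sites covered in all 8 libraries the difference of ND4L from ND3 was -35.4 points. Of those 6 sites of ND3, 4 are the cytosines of its high run of 8 bases, at median coverages of 10 to 43 reads. Values over these 6 sites thus rest largely on 1 stretch with high rates. With sites of 50% or more in any library left out, ND4 was no longer above the others but at -7.20 points against ND4L (exact sign-flip permutation test, adjusted p = 0.0156) and at -2.78 points against ND3 (adjusted p = 0.133).

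Against all other listed L-strand cytosines outside the 3 genes, ND4 was higher by 37.0 points ± 6.33 (SD, n = 8) in 8 of 8 preparations (exact sign-flip permutation test, adjusted over 6, p = 0.0156). ND4L was higher by 5.65 ± 6.46 points (SD, n = 8) in 7 of 8 (exact sign-flip permutation test, adjusted p = 0.0469). That call of ND4L was lost on leaving out any of E2, E3, B1, B2, L1, L2 or S1 and turned with other site sets: over sites covered in all 8 libraries ND4L differed from the rest by -5.35 points (exact sign-flip permutation test, adjusted p = 0.0469). ND3 differed by -4.17 ± 11.1 points (SD, n = 8, exact sign-flip permutation test, adjusted p = 0.328). Over its 6 sites covered in all libraries, 4 of them in its high run, it differed by 30.004 points in the other direction (exact sign-flip permutation test, adjusted p = 0.00938). Among the other mtDNA genes of complex I, the L-strand means after 60 min were 28.9% for ND1, 79.2% for ND2, 51.9% for ND5 and 99.5% for ND6, the last being the only one transcribed in the opposite sense. ND4 stood between ND5 and ND2 in that order. Its values overlapped with those of both: ND5 ran from 45.1 to 64.3% and ND2 from 68.7 to 92.2% over the 8 libraries, and these genes were not compared by a test.

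**Figure D2:**
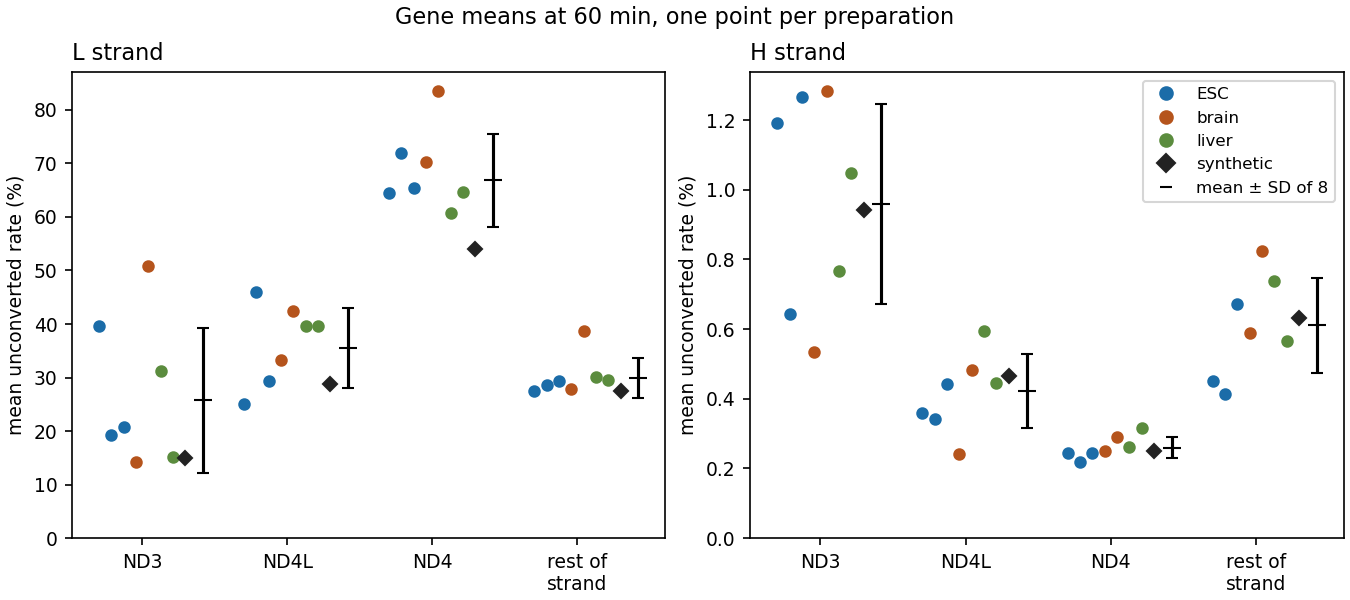
Mean unconversion rate (%) after 60 min of ND3, ND4L, ND4 and all other listed cytosines of the same strand, L strand at left and H strand at right on its own scale. Each point is 1 preparation (circles native, black diamond synthetic) and the black bar is the mean ± SD of 8. On the L strand every ND4 point lies above the other genes of its library. On the H strand ND4 has the lowest mean, though in B1_60 ND4L lies slightly below it.

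Guanines near a cytosine went with its L-strand rate. Each gene's cytosines were split at the median number of guanines within 25 bases on either side. In ND4, with fewer than 4 such guanines the mean was 85.4% ± 4.37 and with 4 or more 41.4% ± 11.03 (SD, n = 8 each), a difference of 44.0 points in 8 of 8 preparations (exact sign-flip permutation test, two-sided, adjusted over 7 context tests, p = 0.0182). In ND4L the values were 45.8% ± 7.35 and 27.3% ± 7.92 (SD, n = 8), a difference of 18.5 points in 8 of 8 (exact sign-flip permutation test, adjusted p = 0.0182). ND3 had too few covered sites per class for the test (as few as 4), and its difference was -3.35 ± 30.5 points (SD, n = 8). Finer steps showed the same order in ND4: 88.8% with 0 to 2 guanines, 76.9% with 3 to 4, 56.9% with 5 to 6, 31.0% with 7 to 8 and 0.347% with 9 or more. S1_60 alone gave 88.8%, 70.9%, 25.5%, 22.6% and 1.28% in these steps. Some steps rest on few sites: that of 5 to 6 guanines had 6 to 24 of 83 cytosines covered per library, with library means from 25.5 to 83.3%. With 9 or more, 0 to 31 of 40 were covered. ND3 and ND4L also ended near 0 with 9 or more guanines (0.0360% and 4.67%) but were not ordered below that. The value of ND3 comes from at most 5 cytosines in 5 libraries. Neighbouring cytosines share reads, and these steps were not tested.

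**Figure D3:**
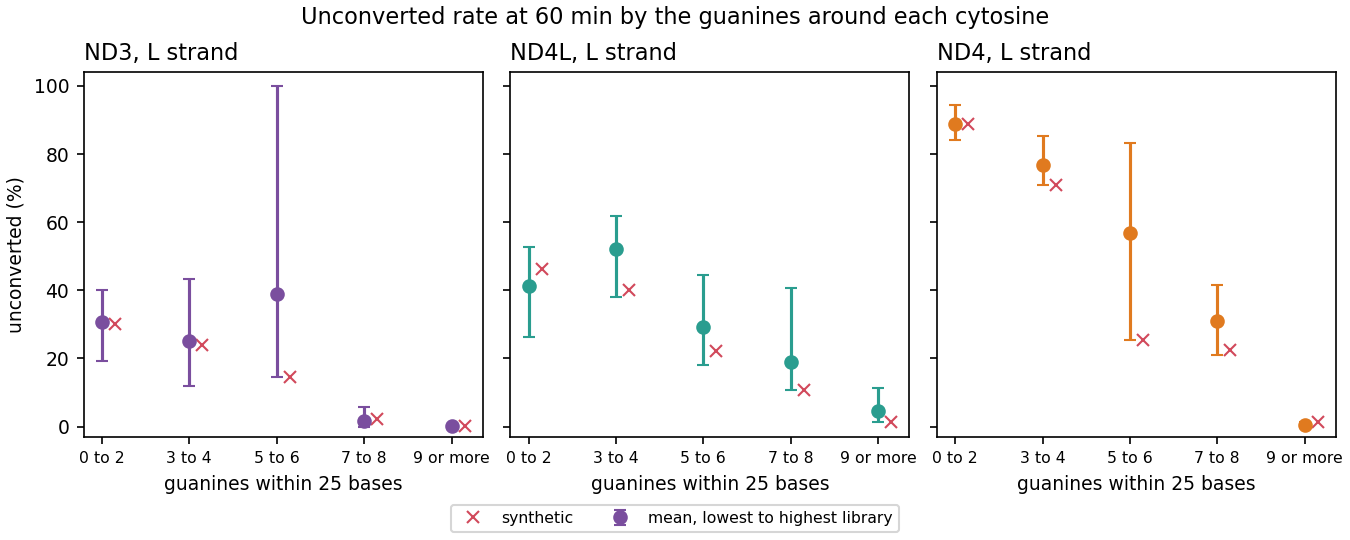
Unconversion rate (%) after 60 min of L-strand cytosines by the number of guanines within 25 bases, for ND3, ND4L and ND4. Points are means over libraries, bars run from the lowest to the highest library and red crosses are synthetic mtDNA; in ND4 the mean goes from 88.8% with 0 to 2 guanines to 0.347% with 9 or more.

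CG dinucleotides are the usual place of 5mC in nuclear DNA. On the L strand 3 of 4 CG cytosines of ND3, 5 of 6 of ND4L and 8 of 21 of ND4 were covered in some library of 60 min, and none had a mean of 90% or more. The highest were in ND4, at 11460 with 85.8% in 5 libraries (93.1% in S1_60) and at 10569 with 75.9% in 3 libraries (72.7% in S1_60), and 5 covered CG cytosines of ND4 were under 5%. Cytosines outside CG had an L-strand mean of 67.5% ± 8.41 in ND4 and 36.6% ± 7.27 in ND4L, against 26.5% ± 12.7 (SD, n = 7) and 9.70% ± 6.51 (SD, n = 8) for CG cytosines. Fewer than 5 CG cytosines were covered in some libraries, so this was not tested on the L strand. By codon position the L-strand means of ND4 were 63.1%, 67.5% and 70.0% at positions 1, 2 and 3, with SDs of 7.20 to 10.3 points over 8 preparations, and were not tested.

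On the H strand every cytosine of the 3 genes was covered in every library, and after 60 min nearly all were converted. ND4 had 0.259% ± 0.0305 (SD, n = 8), from 0.219% in E2_60 to 0.317% in L2_60. ND4L had 0.422% ± 0.106 (SD, n = 8), from 0.242% in B1_60 to 0.594% in L1_60. ND3 had 0.959% ± 0.288 (SD, n = 8), from 0.534% in B1_60 to 1.28% in B2_60. ND4, the highest of the genes on the L strand over all covered sites, was the lowest here. ND4 differed from ND3 by -0.700 percentage points ± 0.278 and ND4L from ND3 by -0.537 ± 0.266, each lower in 8 of 8 preparations (exact sign-flip permutation test, adjusted p = 0.0117 each), and ND4 differed from ND4L by -0.163 ± 0.0984, lower in 7 of 8 (exact sign-flip permutation test, adjusted p = 0.0188). With calls pooled over sites the last difference was -0.0818 points and was not called (adjusted p = 0.075, exact sign-flip permutation test). Against the other H-strand cytosines ND4 differed by -0.351 ± 0.126 points and ND4L by -0.189 ± 0.107, both lower in 8 of 8, and ND3 was higher by 0.349 ± 0.274 in 7 of 8 (exact sign-flip permutation test, adjusted p = 0.0156, 0.0156 and 0.0352). The call of ND4L was lost with pooled calls (-0.102 points, adjusted p = 0.0547), and that of ND3 without a coverage minimum (0.251 points higher, adjusted p = 0.0844) and on leaving out any of 6 preparations, all but B1 and L1.

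The H-strand sites with the highest rates were few. Of the 135 H-strand cytosines of ND4, 131 had means under 1% and 2 had means of 2% or more, against 25 and 2 of 38 in ND3 and 32 and 1 of 33 in ND4L. They are shown with 12 bases on either side, H strand, 5′ to 3′, with the cytosine in capitals, from RefSeq GRCm38.p6.
ND4 11149, chrM:11137-11161: gagtttgctaggCagaataggagtg
ND4 10993, chrM:10981-11005: gtttggcgtaagCagattgagctag
ND3 9759, chrM:9747-9771: catatgctaggcCtagagatagaat
ND3 9601, chrM:9589-9613: gagaatggtagaCgtgcagagcttg
ND4L 9879, chrM:9867-9891: gaaggtagatggCatattggtaatt

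ND4 11149 had 4.19% ± 0.764 (SD, n = 8), with 4% in E1_60, 4.70% in E2_60, 5.10% in E3_60, 5.30% in B1_60, 3.40% in B2_60, 4.10% in L1_60, 3.5% in L2_60 and 3.40% in S1_60, at coverages of 266 to 2208 reads. Synthetic mtDNA matched the lowest native library, so the native values overlap with it. This site was also the slowest H-strand cytosine of ND4 to convert, with a mean of 47.5% after 5 min against a median of 31.6% over the gene's H-strand sites. ND4 10993 had 2.66% ± 0.684 (SD, n = 8), from 1.90% in L2_60 to 3.70% in B2_60, with 2.50% in S1_60. ND3 9759 had 2.48% ± 0.838, from 1.2% in B1_60 to 4% in B2_60, with 2.80% in S1_60. ND3 9601, the H-strand cytosine of a CG, had 2.39% ± 2.26, with 0% in B1_60 and L1_60, 5.90% in E2_60 and 0.600% in S1_60, at coverages of 23 to 168 reads, where 1 read is a large step. The other H-strand CG cytosines had means of 0.0250 to 1.23%.

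By context, the H-strand rates of CG cytosines minus those outside CG came to -0.0724 points ± 0.0562 in ND4 and -0.152 ± 0.174 in ND4L, each lower in 7 of 8 preparations (exact sign-flip permutation test, adjusted p = 0.0219 each), and ND3, with 4 CG cytosines, was not tested. The highest H-strand sites of these genes, 11149 and 10993 in ND4 and 9879 in ND4L, all lie outside CG. Whether the differences hold without them was not tested, so they cannot be read as an effect of CG itself. Few against many guanines within 25 bases made a difference of -0.494 points ± 0.327 in ND3, in 8 of 8 (exact sign-flip permutation test, adjusted p = 0.0182), which was -0.0861 within 50 bases (adjusted p = 0.656). In ND4L it was -0.136 ± 0.228 points (adjusted p = 0.0911) and in ND4 -0.00959 ± 0.0540 (adjusted p = 0.656), both by the exact sign-flip permutation test over 8 preparations. Within 50 bases ND4 had a difference of -0.165 points, which passed (exact sign-flip permutation test, adjusted p = 0.0182). At the second codon position of ND4 the H strand had a mean of 0.362% ± 0.0487, against 0.186% ± 0.0311 at the first and 0.204% ± 0.0447 at the third (SD, n = 8), which was not tested. Sites 11149 and 10993, the highest of the gene on this strand, both lie at the second position, and their part in its mean was not tested.

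Native and synthetic mtDNA were compared to ask whether any rate exceeds that of DNA without 5mC. For the L strand of ND4, native libraries had 68.7% ± 7.52 (SD, n = 7) and S1_60 had 54.0%, a difference of 14.7 points with 7 of 7 native preparations higher. Taken over the sites that each native library shares with S1_60 (64 to 151), the difference was -0.0950 points ± 1.27 (SD, n = 7), from -1.81 in E1_60 to 1.43 in E2_60. S1_60 covered 47 L-strand cytosines of ND4 that no native library covered, and their mean was 30.3%, while at the 128 cytosines covered in 4 or more native libraries S1_60 had 70.5% and native mtDNA 69.9%. ND4L was 36.5% ± 7.47 in native mtDNA against 28.8%, and 0.553 points ± 6.64 higher over shared sites (35 to 76), in 3 of 7 preparations. ND3 was 27.3% ± 13.8 against 15.0%, and 4.61 points ± 4.99 higher over shared sites (11 to 58), in 5 of 7, with 13.8 points in E1_60 as the largest. Over the 6 L-strand sites of ND3 covered in all 8 libraries, 4 of them in its high run, native mtDNA was 9.61 points higher, in 7 of 7 preparations (exact permutation test, two-sided, p = 0.125). Over such sites ND4L and ND4 differed by -3.97 and 0.339 points. For the H strand, where all sites are shared, native minus synthetic was 0.0195 points ± 0.311 in ND3, -0.0511 ± 0.113 in ND4L and 0.0103 ± 0.0327 in ND4 (SD, n = 7). With 1 synthetic preparation the exact permutation test of 7 against 1 cannot go below p = 0.125. With all covered sites, its two-sided p ran from 0.25 to 1 over the 6 comparisons (adjusted p = 1 for each). Over shared L-strand sites the correlation of a native library with S1_60 was 0.932 to 0.994 in ND4, 0.907 to 0.987 in ND4L and 0.908 to 0.986 in ND3; it runs over sites that share reads and base composition and is given as a description.

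After 40 min, native mtDNA had 60.3% ± 2.10 (SD, n = 4) on the L strand of ND4 and S1_40 had 47.9%, with 4 of 4 higher (exact permutation test, two-sided, p = 0.2, the smallest that 4 against 1 can give). Here too the covered sites differ between libraries. Over the 107 sites covered in all 20 libraries of the time course, the 40 min libraries ran from 67.1% in S1_40 to 73.5%. On the H strand, ND4L was higher in native mtDNA by 0.246 points ± 0.116 in 4 of 4 preparations and ND3 differed by -0.236 ± 0.0548, lower in 4 of 4 (exact permutation test, p = 0.2 each, adjusted p = 0.4). Neither difference was repeated after 60 min, where ND4L was higher in 2 of 7 preparations and ND3 in 4 of 7.

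Single sites were tested with limma on the log odds of each preparation's rate, over 4018 sites of the whole mtDNA, of which 414 lie in the 3 genes. None of the 414 passed an adjusted p of 0.05 for native against synthetic mtDNA, and none of all 4018 did (0%). Without adjustment 21 of the 414 had p under 0.05, against 10.7% of all sites tested. All 12 of these on the L strand of ND3 were higher in native mtDNA on the log-odds scale, but 8 of them had 0% in every covered library, so that there only the coverage differed. The smallest adjusted p of a site of the 3 genes was 0.455 (limma).

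Fisher's exact test on the summed reads of all preparations, which ignores the spread between them, called 13 sites of the 3 genes at an adjusted p of 0.05, all lower in native mtDNA, against 1.02% of all 4018 sites. Of these, 11 lay on the L strand of ND4L within 29 bases, named here after their values were seen. The stretch is shown because it holds most of the sites that this test called. It is the L strand, 5′ to 3′, RefSeq GRCm38.p6, with the called cytosines in capitals.
ND4L, chrM:10007-10035: CttCagtaaCttCCCtaaaCtCCaaCtcC
Over these 11 cytosines the mean rate was 12.96% in E1_60, 35.3% in E2_60, 20.6% in E3_60, 25.9% in B1_60, 39.1% in B2_60, 18.4% in L1_60, 23.3% in L2_60 and 34.0% in S1_60. S1_60 lay within the native range, above 5 and below 2 of the 7 native preparations. At the first cytosine of the stretch, 10007, the native mean was 40.3% and S1_60 had 51.9%, and at the last, 10035, they had 14.5% and 20.5%. With E1 left out, Fisher's exact test called 2 sites of the 3 genes, and with each other native preparation left out it called 9 to 16. In the test over preparations none of the 11 was called, with an adjusted p of 0.810 for 10019 (limma), the site with the smallest Fisher p.

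ESC and tissue mtDNA were compared next, and no gene passed the test on either strand. ESC minus tissue was, for the L strand, -1.25 points in ND3 (26.6% ± 11.3 against 27.8% ± 17.2), -5.20 in ND4L (33.5% ± 11.1 against 38.7% ± 3.85) and -2.47 in ND4 (67.3% ± 4.10 against 69.8% ± 9.91; SD, n = 3 and 4). No L-strand comparison had groups that did not overlap (exact permutation test, two-sided, adjusted over 6, p = 0.9 to 0.971). H-strand rates of ND4 did not overlap between the groups, with 0.244%, 0.219% and 0.244% in E1_60, E2_60 and E3_60 and 0.2496%, 0.290%, 0.261% and 0.317% in B1_60, B2_60, L1_60 and L2_60. That difference, -0.0435 points, had p = 0.0571 (exact permutation test, where 0.0286 is the smallest possible) and an adjusted p of 0.343. ND3 and ND4L differed by 0.125 and -0.0591 points on the H strand (exact permutation test, adjusted p = 0.9 each). Site by site, limma called 0 of 414 sites (0% of all 4018), with 20 of 414 at an unadjusted p under 0.05 against 4.28% of all sites, and Fisher's exact test called 0 of 414 against 0.0249% of all sites.

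Brain and liver, with 2 preparations each, were set side by side without a test of gene means. In L-strand ND4 brain had 70.2% and 83.5% and liver 60.8% and 64.7%, which did not overlap, but the 83.5% is that of B2_60 with 64 covered sites. ND3 had 14.3% and 50.8% in brain and 31.1% and 15.1% in liver, and ND4L 33.3% and 42.4% against 39.6% and 39.7%. H-strand means overlapped in each gene. Limma called 0 of 414 sites for brain against liver (0% of all 4018), with 28 of 414 at an unadjusted p under 0.05 against 5.35% of all sites, and Fisher's exact test called 0 of 414 against 0.597% of all sites.

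Over the treatment times, all 3 genes lost most of their H-strand signal by 15 min, whereas the L strand of ND4 kept most of its own. On the H strand ND4 had 31.2% ± 1.66 in the 5 min libraries, 5.07% ± 3.40 at 15 min, 0.315% ± 0.0740 at 40 min and 0.245% ± 0.0155 at 60 min (SD, n = 5). ND4L went from 32.2% ± 1.67 to 5.15% ± 2.90, 0.603% ± 0.149 and 0.401% ± 0.134, and ND3 from 27.8% ± 1.04 to 5.36% ± 3.21, 0.729% ± 0.116 and 0.815% ± 0.260 (SD, n = 5). The SDs at 15 min come from E1_15: without it the 15 min means were 3.55% ± 0.135 in ND4, 3.86% ± 0.167 in ND4L and 3.93% ± 0.209 in ND3 (SD, n = 4). H-strand rates fell from 5 to 15 min and from 15 to 40 min in 5 of 5 preparations in each gene (exact permutation test, two-sided, adjusted over 18 steps, p = 0.0159 for each). From 40 to 60 min the changes were -0.0702 points in ND4 (5 of 5 lower), -0.202 in ND4L (3 of 5 lower) and 0.0858 in ND3 (1 of 5 lower), and none passed (exact permutation test, adjusted p = 0.0833, 0.0879 and 0.605).

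On the L strand, ND3 fell from 82.3% after 5 min to 21.3% after 15 min, ND4L from 62.7% to 34.1% and ND4 from 86.7% to 69.5%, each in 5 of 5 preparations (exact permutation test, adjusted p = 0.0159 for each). From 15 to 40 min ND4 fell by 11.7 points to 57.9% in 5 of 5 (exact permutation test, adjusted p = 0.0429), and the values were 16.7% in ND3 (adjusted p = 0.0779) and 31.8% in ND4L (adjusted p = 0.683). From 40 to 60 min ND4 was 6.44 points higher in 5 of 5, ND4L 2.79 points higher in 4 of 5 and ND3 7.16 points higher in 4 of 5, none of which passed (exact permutation test, adjusted p = 0.214, 0.605 and 0.352). The durations of one preparation are paired. With the preparation as a block (exact sign-flip permutation test, n = 5) the smallest possible p is 0.0625, every step called above has an adjusted p of 0.0865 and no call remains.

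Over the L-strand sites covered in all 20 libraries of the time course ND4 stayed the highest after 15, 40 and 60 min, while ND3 lay above ND4L at each time, the opposite of their order over all covered sites from 15 min on. For 107 sites of ND4 the means were 86.9% ± 0.589, 75.4% ± 2.15, 70.0% ± 2.54 and 75.8% ± 2.23 after 5, 15, 40 and 60 min (SD, n = 5), with 87.7%, 72.1%, 67.1% and 76.2% in synthetic mtDNA. For these sites the difference from 40 to 60 min was 5.86 points and was called without the block (exact permutation test, adjusted p = 0.0260), which the paired test cannot do, as its smallest p is 0.0625. For 52 sites of ND4L they were 61.3% ± 3.72, 38.5% ± 6.18, 37.4% ± 4.61 and 39.6% ± 7.40. For 9 sites of ND3, 4 of them in its high run, they were 86.6% ± 2.89, 43.8% ± 4.10, 42.2% ± 6.05 and 46.8% ± 4.58.

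**Figure D4:**
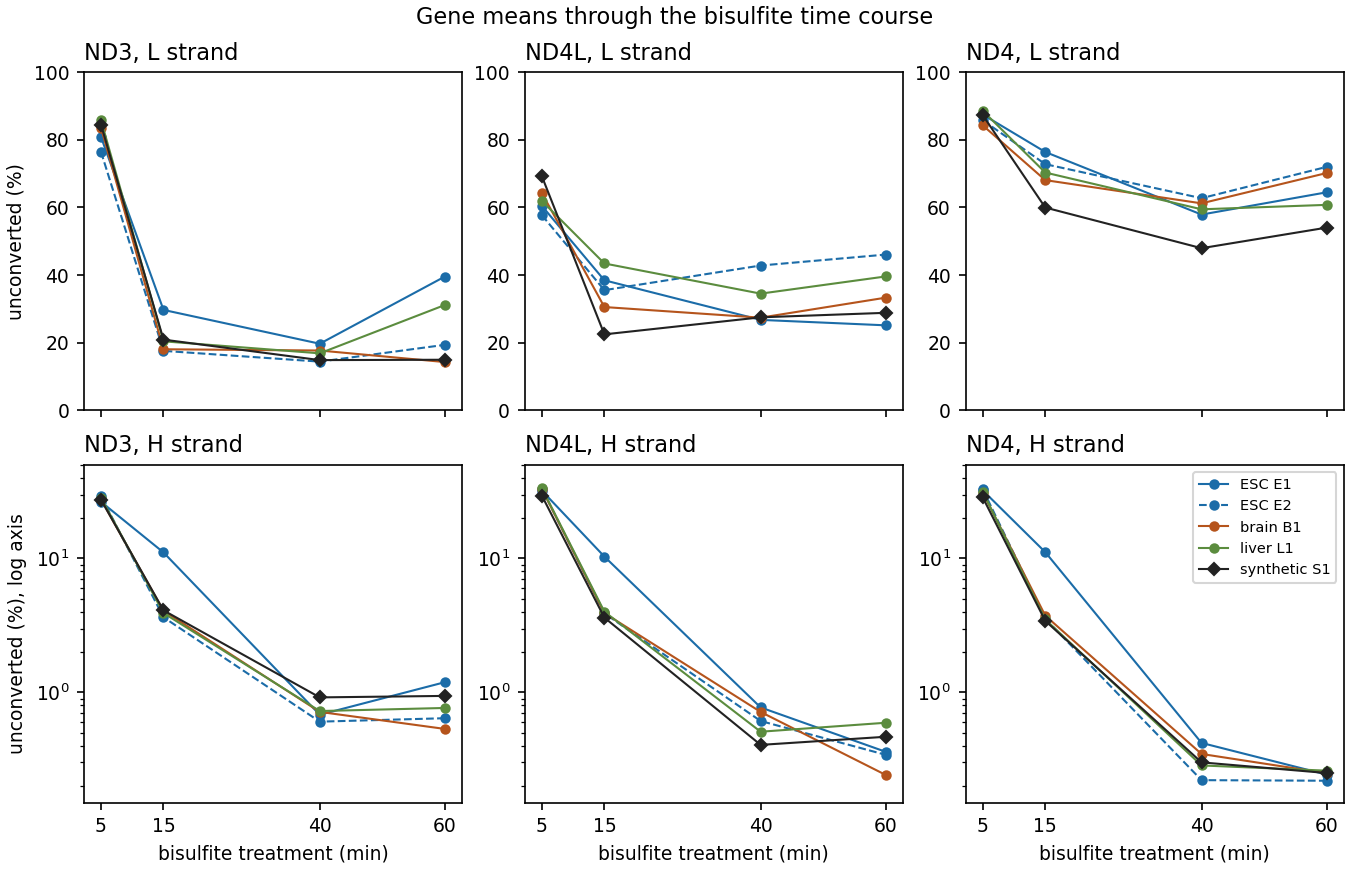
Mean unconversion rate (%) of ND3, ND4L and ND4 on the L strand (top, linear axis) and on the H strand (bottom, log axis) against the minutes of bisulfite treatment. Each line is 1 preparation (synthetic in black with diamonds, ESC E2 dashed); E1 stands above the others at 15 min on the H strand, and the L strand of ND4 stays between 47.9 and 62.7% at 40 min.

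A longer treatment was made for E3 alone. On the H strand E3_90 had 1.98% in ND3, 0.994% in ND4L and 0.726% in ND4, against 1.27%, 0.442% and 0.244% in E3_60, at median coverages of 61 to 167 reads. On the L strand 5 sites of ND3, 38 of ND4L and 54 of ND4 were covered after 90 min. Over these sites ND4 had 78.3% after 60 min and 73.5% after 90 min, ND4L 25.3% and 34.2%, and ND3 40.0% and 75.5%. There is 1 library per duration here, and no test was made.

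The genes also differed in how deeply they were read, and the strands moved apart. After 60 min the mean L-strand coverage of ND4 was 0.279 times that of the rest of the L strand (0.220 to 0.352 over libraries) and that of ND3 0.227 times (0.110 to 0.382), each lower in 8 of 8 libraries, whereas ND4L was at 1.01 times (0.700 to 1.75) and lower in 5 of 8. The H strand of ND4 was read 2.48 times as deeply as the rest (1.83 to 2.96) and ND4L 1.31 times (1.04 to 2.07), each higher in 8 of 8, and ND3 0.571 times (0.397 to 0.756), lower in 8 of 8. All of these but ND4L on the L strand passed (exact sign-flip permutation test on log2 ratios, two-sided, adjusted over 6, p = 0.00938, against 0.938 for ND4L). Early in the reaction ND4 was less far below: its L-strand ratio was 0.663 to 0.963 after 5 min and 0.347 to 0.570 after 15 min. Its median L-strand coverage went from 48 to 78 reads after 5 min to 4 to 8 reads after 40 min in the 5 preparations of the time course. The coverage and the rate of a site come from the same reads, and whether they act on each other was not tested.

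**Figure D5:**
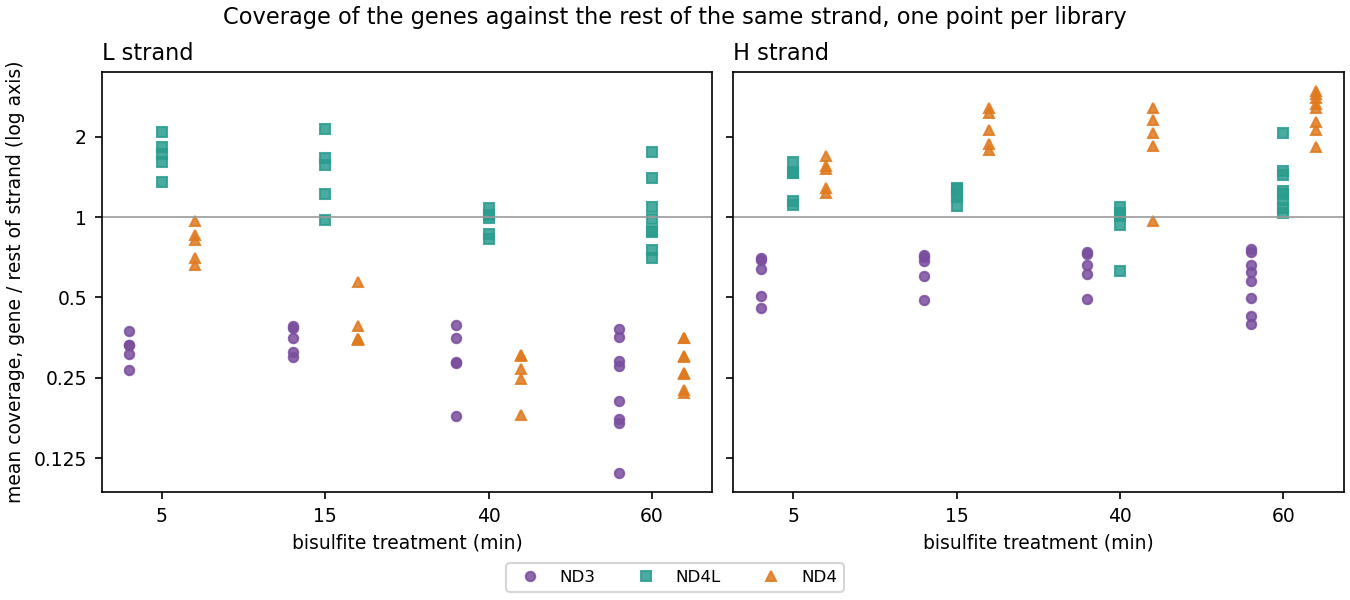
Mean coverage of each gene divided by the mean coverage of all listed cytosines of the same strand outside the 3 genes (log axis) against the minutes of bisulfite treatment, L strand at left and H strand at right, 1 point per library (E3_90 is not drawn). On the L strand ND4 goes from 0.663 to 0.963 after 5 min to 0.220 to 0.352 after 60 min, and on the H strand it reaches 1.83 to 2.96.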

How the data were processed

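Whole mtDNA bisulfite libraries of 8 preparations were analysed from 1 table per library. Per the labels and the study's methods, the authors treated mtDNA with bisulfite, made PBAT libraries, sequenced them on a MiSeq, trimmed reads with Trim Galore, mapped them with Bismark to chrM of mm10 and processed the output with Perl scripts, and the versions used for these libraries are not given in the sources used here. For each cytosine the authors deposited the percent of reads in which it was unconverted, to 1 decimal, and the coverage as a count of reads. The authors left out reads with 90% or more unconverted cytosines from their rates and then found nearly complete L-strand conversion after 60 min. The deposited values reach 100% over whole stretches. Their L-strand means outside the 3 genes ran from 27.4% (S1_60) to 38.7% (B2_60) after 60 min. They are therefore not those filtered rates and appear to include such reads, which could not be checked on single reads. L-strand rates here are higher than those of the study.

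Unconverted reads were taken as percent times coverage, rounded. Samples were grouped by the labels, which name the native preparations as biological replicates. Sites with a coverage of 10 or more were used and averaged per gene and strand. Exact permutation tests were two-sided. Sites were tested with limma 3.58.1 in R 4.3.3 on log odds with an offset of 0.5, in 4 groups, each strand apart, at sites covered in S1_60, in 2 or more ESC, 1 or more brain and 1 or more liver preparations, with Benjamini-Hochberg adjustment over all 4018. The single synthetic library was assumed to vary like the others. Scripts were tested on simulated data. Durations of one preparation are paired by design; deviations of the same preparation at 40 and 60 min correlated between -0.164 and 0.205 over 3678 sites. The genes, lists and tests were chosen with earlier results of these data known. Named sites were the 3 with the highest means per gene and strand, of which those of 2% or more on the H strand are printed, sites called by limma, the overlap and the start codons; named runs were the longest with rates of 90% or more, or under 5%. Alternatives were other coverage minimums, pooled calls, shared sites, other windows and tests, and leaving out preparations. λDNA reads were not analysed here.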

Additional observations from a re-analysis of the deposited data

Results flagged for a closer look

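In the 15 min libraries, E1_15 lay far from the other 3 native libraries on the H strand of each gene. It had 11.1% in ND3 against 3.64 to 4.07%, 10.3% in ND4L against 3.89 to 4.01% and 11.1% in ND4 against 3.5 to 3.74%. Its gap to the next library, as a share of the whole range, was 0.943 in ND3, 0.983 in ND4L and 0.969 in ND4. The same was asked of 24 sets of native libraries, where chance alone would pick about 1 in 20, and these 3 were picked. They come from 1 library and are not separate events. Nor are they particular to these genes: the rest of the H strand had 10.5% in E1_15 against 3.38 to 3.65% in the other 3 native libraries.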

How the results depend on the processing

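Differences are in percentage points, L and H name the strands, and adjusted p-values come from the exact permutation tests. Native minus synthetic moved in these cases: ND3 L to -5.80 with a coverage minimum of 30, ND4L L to -2.24 and ND4 L to 0.936 with calls pooled over sites, ND4L L to -3.97 and ND4 L to 0.339 over sites covered in all 8 libraries, ND4 L to -0.0378 without sites of 50% or more, and ND4L H to 0.246 at 40 min. Over sites covered in the other 7 libraries with B2_60 left out, a setting chosen after seeing the data, ND4L L was -3.33 and ND4 L -0.575. ND3 L stayed higher in native mtDNA there, at 6.75 in 6 of 6 preparations, and at 9.61 over sites covered in all 8 libraries. Both of these site sets of ND3 are small and hold the 4 cytosines of its high run. ESC minus tissue, never called, changed sign in ND4L to 1.43 (L) and 0.0434 (H) with a minimum of 20 and to 0.0453 (H) with 30, in ND3 L to 3.65 without a minimum, with pooled calls to 1.09 (ND3 L), -0.0133 (ND3 H) and 0.0552 (ND4L H), over common sites to 1.87 (ND3 L, all 8) and 1.53 (ND3 L, without B2_60), and without sites of 50% or more to 0.418 (ND4 L).

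ND4L minus the rest (L) lost its call with minimums of 20 (2.70), 30 (6.66) and none (3.53) and turned to -12.6 with pooled calls and -5.35 over sites covered in all 8 libraries. ND3 minus the rest was called without a minimum (L -7.84, with H at 0.251 losing its call) and with pooled calls (L -14.7), and turned to 30.004, 17.7 and 7.02 (L) over sites of all 8 libraries, without B2_60 and without sites of 50% or more. Pooled calls ended those of ND4 minus ND4L H (-0.0818) and ND4L minus the rest H (-0.102). A minimum of 30 ended that of ND4 minus ND3 L (59.8). Without sites of 50% or more, ND4 minus ND3 L was -2.78, ND4 minus ND4L L -7.20 and ND4L minus ND3 L 4.42, now called. ND4L minus ND3 L was 11.4 without a minimum, now called, -35.4 over sites of all 8 libraries and -7.62 without B2_60. Few minus many guanines on the H strand was 0.0506 (ND4L) and -0.0805 (ND4, now called) within 15 bases, and -0.0861 (ND3, call lost), 0.0529 (ND4L) and -0.165 (ND4, now called) within 50. ND4 L from 40 to 60 min was 5.86 over sites covered in all 20 libraries, now called in the test without the block, a call that 5 pairs could not reach with it. Fisher's exact test called 13 sites of the 3 genes for native against synthetic mtDNA, and 2 without E1, 15 without E2, 9 without E3, 16 without B1, 14 without B2, 16 without L1 and 12 without L2.

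With the preparation as replicate block, the differences of the 10 called time steps stayed the same (ND3 L -60.9, ND4L L -28.6, ND4 L -17.2 and -11.7, ND3 H -22.5 and -4.63, ND4L H -27.1 and -4.55, ND4 H -26.1 and -4.76) and lost their calls, since an exact sign-flip permutation test on 5 pairs cannot go below p = 0.0625. In the site tests native samples share only a number. Deviations in groups of 2 mirror each other, so their correlations (-0.184 to 0.189 in 6 same-numbered pairs) say little about pairing. The block called 0 sites, as without it.

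Leaving out 1 preparation gave these ranges. From 5 to 15 min the L strand ran from -63.4 to -59.8 (ND3), -31.2 to -24.1 (ND4L) and -18.7 to -14.6 (ND4), and the H strand from -24.2 to -21.7, -28.4 to -26.5 and -27.4 to -25.3. From 15 to 40 min it was -12.9 to -9.96 (ND4 L), -4.69 to 0.0637 (ND4L L), -5.03 to -3.19 (ND3 H), -4.89 to -3.30 (ND4L H) and -5.17 to -3.27 (ND4 H), and from 40 to 60 min -0.0204 to 0.153 (ND3 H). All called steps then had adjusted p of 0.0514 or more. ESC minus tissue was -7.75 to 6.40 (ND3 L) and -5.47 to 2.09 (ND4 L), ND3 minus the rest H 0.293 to 0.406, ND4L minus the rest L 3.96 to 6.80 and ND4L minus ND3 L 7.41 to 13.3, called without E1 (adjusted p = 0.0312). Depth limits the L strand most, where native ND4 had a median coverage of 0 to 6 reads after 60 min.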
